A study of Mus musculus with 29 samples.

Results

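Barhl1 and Barhl2 are the mouse members of the BarH-like homeobox family. Peak summits of the transcription factors Atoh1, Pou4f3 and Gfi1 were collected in the body of each gene or within 100 kb of it, and 78 of the 175162 summits retained by the authors in 9 peak lists lay there. The Barhl1 window held 61 of them and the Barhl2 window held 17. Barhl1 (ENSMUSG00000026805.7) lies on the minus strand of mm9 at chr2:28763199-28772188, and Barhl2 (ENSMUSG00000034384.9) on the minus strand at chr5:106881533-106887469.

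Atoh1 is a basic helix-loop-helix activator that starts hair cell development in the inner ear and the development of several neuron types in the hindbrain and spinal cord, and it binds E-boxes. Pou4f3 is a POU homeodomain factor and Gfi1 a zinc finger factor known as a repressor, and both are needed for hair cells to mature and survive. The study proposes that Gfi1 is also a co-activator of Atoh1. Barhl1 and Barhl2 are expressed in Atoh1-dependent neurons, and Barhl1 is also expressed in hair cells, where it is needed for their long-term survival.

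The study used 29 ChIP-seq libraries, 17 from immunoprecipitated chromatin and 12 from input, of 6 mouse embryonic stem cell lines derived from A2loxCre. Each line carried a doxycycline-inducible cassette ending in Venus, with Atoh1 alone (iAtoh1), Gfi1 and Atoh1 (iG+A), Pou4f3 and Atoh1 (iP+A), all 3 factors (iGPA), Pou4f3 alone (iPou4f3) or Gfi1 and Pou4f3 (iG+P). Embryoid bodies were given 2 µg/ml doxycycline for 48 h from day 4 and taken whole at day 6, so that cells that did not respond were not sorted out, and uninduced cells were not analysed here. Per the labels of the series, the replicates of a line were separate clones of it. Atoh1 was precipitated through a FLAG tag in 4 lines, Pou4f3 through a Myc tag in 4 lines and Gfi1 by an antibody to the protein in iGPA. Peaks were called on merged libraries, 2 for each Atoh1 and Pou4f3 list and 1 for Gfi1. No spread between replicates can therefore be given, no difference between lists was tested, and sites are not replicates. The longest list, Pou4f3 in iG+P, held 32632 retained peaks and the Gfi1 list 3012.

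The sites that carry the main results are printed here with their sequence, 5′ to 3′ on the plus strand of mm9, to show the letters under their summits. Each printed site holds a marked pattern, which was not so for all sites. The site 1.4 kb upstream of Barhl1 held none of the patterns searched. The site 27.3 kb upstream had Pou4f3 summits and no Pou4f pattern. Capitals mark an E-box (CAGCTG or CAGATG, either strand), a Pou4f pattern (ATAATTAAT with at most 1 mismatch, either strand) or, for the start of Barhl1 only, the looser E-box CANNTG. Windows are 101 bp around the highest summit, or 30 bp around a pattern where the summit lies in a UTR. The Barhl2 downstream site also had a Pou4f3 summit in iP+A, and its Pou4f patterns lie outside the printed window.
Barhl1 3′ UTR, Atoh1 in every Atoh1 list, chr2:28764070-28764099: agcctcggagtcCATCTGtctgccccgcgc
Barhl2 past the 3′ end, Atoh1 in every Atoh1 list, chr5:106881034-106881134: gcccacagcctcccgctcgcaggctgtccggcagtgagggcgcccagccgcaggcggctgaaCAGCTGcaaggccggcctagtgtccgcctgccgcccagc
Barhl1 intron, Pou4f3 in every Pou4f3 list, chr2:28766127-28766227: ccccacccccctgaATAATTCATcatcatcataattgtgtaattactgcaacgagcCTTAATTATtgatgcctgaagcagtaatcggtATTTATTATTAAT
Barhl2 upstream, Pou4f3 in every Pou4f3 list, chr5:106889692-106889792: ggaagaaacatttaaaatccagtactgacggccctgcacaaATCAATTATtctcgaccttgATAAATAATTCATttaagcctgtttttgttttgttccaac
Barhl1 upstream, Atoh1, Pou4f3 and Gfi1, chr2:28795216-28795316: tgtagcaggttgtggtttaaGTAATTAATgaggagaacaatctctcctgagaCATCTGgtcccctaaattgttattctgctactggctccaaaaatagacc
Barhl1 upstream, Pou4f3 in every Pou4f3 list and Atoh1 in iGPA, chr2:28779439-28779539: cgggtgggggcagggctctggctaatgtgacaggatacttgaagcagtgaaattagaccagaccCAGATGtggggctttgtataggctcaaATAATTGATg
Barhl1 start, Atoh1 in iG+A, iP+A and iGPA, chr2:28771742-28771771: atcgagcagcccCACCTGgccccggagctc
Barhl2 downstream, Atoh1 in iP+A and iGPA, chr5:106805983-106806083: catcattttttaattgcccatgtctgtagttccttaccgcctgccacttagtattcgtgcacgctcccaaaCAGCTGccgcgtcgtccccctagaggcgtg

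Atoh1 and Pou4f3 summits were found at both genes in every line that was probed for them, and they were more numerous at Barhl1. The iAtoh1 list had 4 Atoh1 summits at Barhl1 and the iG+A list had 6. The iP+A list had 8 and the iGPA list had 13. The Pou4f3 lists had 8 summits at Barhl1 for iGPA, 9 for iP+A, 7 for iG+P and 5 for iPou4f3, and the Gfi1 list had 1. Barhl2 had 1, 2, 2 and 3 Atoh1 summits in iAtoh1, iG+A, iP+A and iGPA. Its Pou4f3 summits numbered 1 for iGPA, 4 for iP+A, 2 for iG+P and 2 for iPou4f3, and it had no retained Gfi1 summit.

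**Figure D1:**
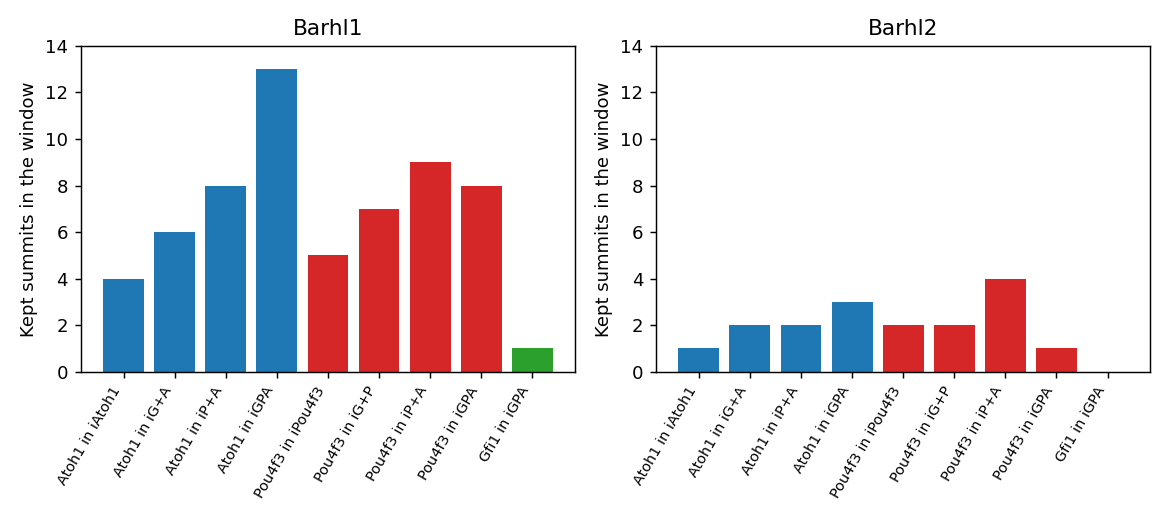
Number of retained summits in the gene body or within 100 kb of it (y axis) in each of the 9 peak lists (x axis), for Barhl1 and Barhl2, coloured by the factor precipitated (blue Atoh1, red Pou4f3, green Gfi1). Each bar is 1 list called on merged libraries, so there is no error bar. Atoh1 summits at Barhl1 go from 4 in iAtoh1 to 13 in iGPA.

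To have a summit in such a window is common, so the presence of a summit alone does not set these genes apart. Of 22350 protein-coding genes on chromosomes 1 to 19 and X, 81.8% had an Atoh1 summit of the iGPA list in a like window, 75.7% one of iP+A, 77.9% one of iG+A and 67.7% one of iAtoh1. For Pou4f3 the shares were 78.5% with the iGPA list, 74.3% with iP+A, 88.1% with iG+P and 84.1% with iPou4f3. A Gfi1 summit was found for 34.2% of genes. The number of summits placed the members apart from each other. Summed over the 4 Atoh1 lists, Barhl1 had 31 summits, a number that 7.63% of genes reached, and Barhl2 had 8, reached by 55.3%. Over the 4 Pou4f3 lists Barhl1 had 29 summits, reached by 5.36% of genes, and Barhl2 had 9, reached by 56.1%. The median gene had 9 Atoh1 and 10 Pou4f3 summits, so Barhl2 lay near the middle of all genes and Barhl1 in the upper tail.

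**Figure D2:**
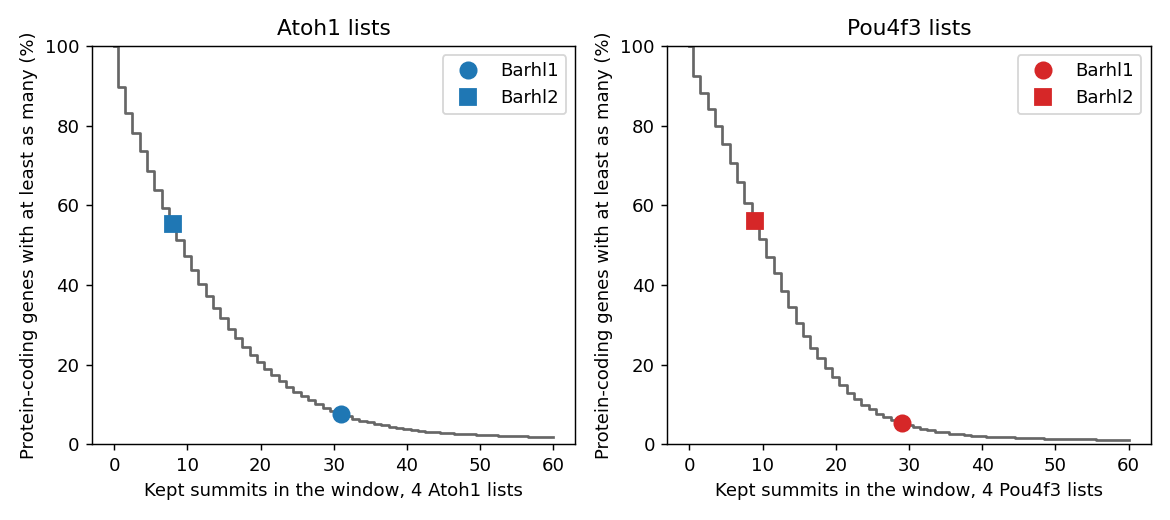
Share of protein-coding genes (y axis, percent) with at least the number of retained summits on the x axis, summed over the 4 Atoh1 lists (left) and the 4 Pou4f3 lists (right), with Barhl1 as a circle and Barhl2 as a square. Summits are those in the gene body or within 100 kb. Barhl1 sits at 31 Atoh1 and 29 Pou4f3 summits, and Barhl2 at 8 and 9, close to the median gene.

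Summits whose 300 bp windows shared at least 1 bp across lists were joined, which gave 18 sites at Barhl1 and 9 at Barhl2. At Barhl1, 7 sites had Atoh1 summits only, 5 had Pou4f3 summits only and 6 had both. At Barhl2, 3 had Atoh1 only, 5 had Pou4f3 only and 1 had both. Of the 18 sites at Barhl1, 13 were found in 3 or more lists, and of the 9 at Barhl2, 3 were, where the share over all sites of the series was 33.4%. This difference was not tested. The window of Barhl1 holds other genes, including Gtf3c4 and Ddx31, and the member was the gene of the nearest annotated start for 7 of the 18 sites, against 9 of 9 at Barhl2. With summits taken by nearest start at any distance, there were 7 sites at Barhl1 and 11 at Barhl2.

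**Figure D3:**
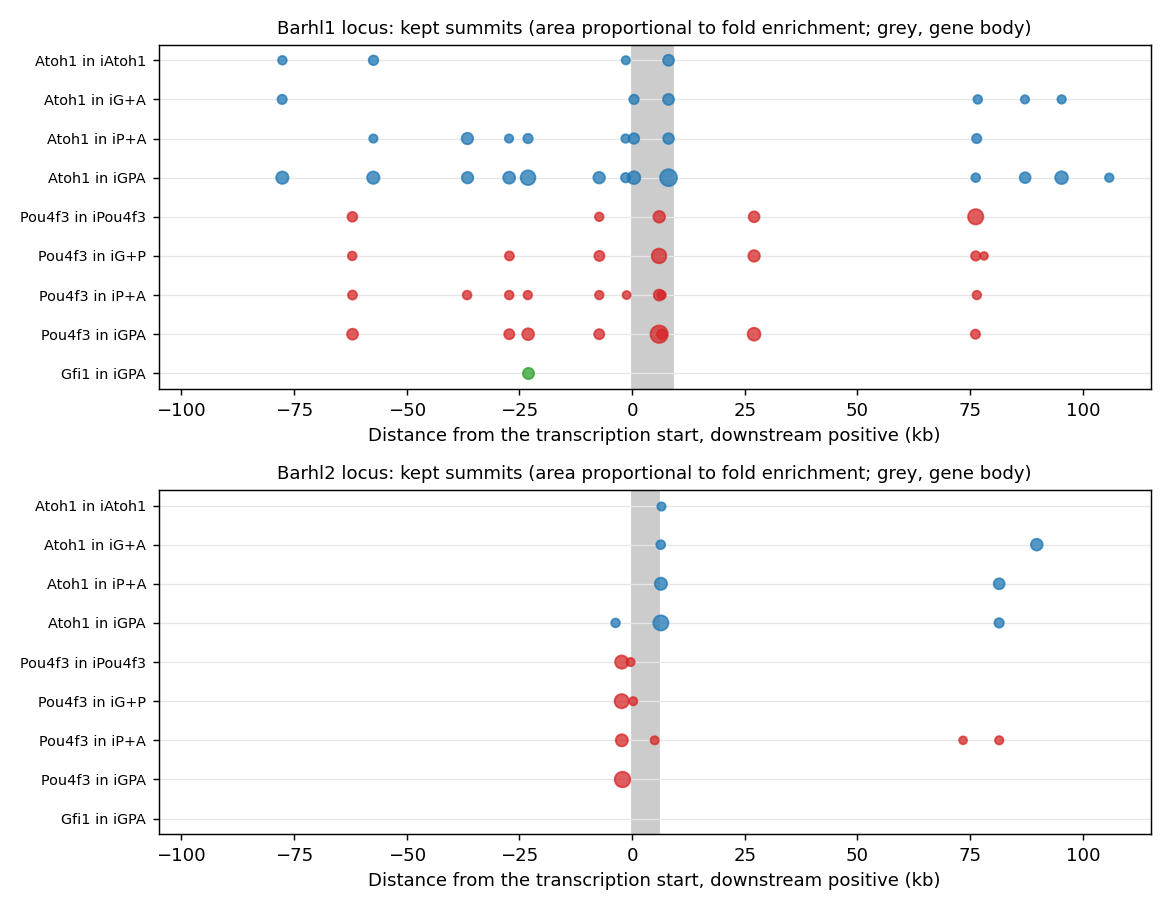
Position of each retained summit (x axis, kb from the most 5′ annotated start, positive downstream) in each list (y axis) at Barhl1 and Barhl2. Point area is proportional to the authors' fold enrichment, colours are the factors and the grey band is the gene body. Columns of points mark sites found in several lists, such as the Atoh1 site at 8.1 kb and the Pou4f3 site at 6.0 kb at Barhl1.

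Each gene had 1 site with a retained Atoh1 summit in every line probed, and at both genes it lay at the 3′ end. At Barhl1 it lay in the 3′ UTR, 8.1 kb from the start, and the 4 summits fell within 14 bp of each other. The fold enrichment, the authors' ratio of ChIP fragments to the peak caller's background at the summit, was 11.0 for iGPA, against 4.45 for iP+A, 4.67 for iG+A and 4.64 for iAtoh1. The 95% Poisson interval of the iGPA value, 8.93 to 13.4, lay above those of the other lists, of which the highest ended at 6.48. These intervals cover counting error only and do not include differences between clones or immunoprecipitations. Ranked among the retained peaks of its own list, the site was at percentile 97.0 for iGPA, 84.7 for iP+A, 85.6 for iG+A and 88.2 for iAtoh1. In all, 3 E-boxes lay in the 250 bp around the summit, the nearest with its first base 14 bp from the summit.

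At Barhl2 the corresponding site lay 449 bp past the 3′ end of the gene, with the 4 summits within 43 bp. Its fold enrichment was 8.86 for iGPA, 5.81 for iP+A, 3.07 for iG+A and 2.69 for iAtoh1. The intervals of iAtoh1 (1.71 to 4.04) and iG+A (1.97 to 4.58) overlapped each other, and that of iGPA (6.95 to 11.1) lay above both. The iP+A interval, 4.38 to 7.56, overlapped those of iG+A and iGPA. The site was at percentile 13.9 in iAtoh1 and 37.0 in iG+A, but 93.1 in iP+A and 94.7 in iGPA. These percentiles come from lists that differ in length and in median fold enrichment (3.12 to 3.45), and their difference was not tested. One CAGCTG E-box lay 12 bp from the summit. Over the series 10.7% of sites in any Atoh1 list were in all 4, against 1 of 13 such sites at Barhl1 and 1 of 4 at Barhl2.

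The highest Pou4f3 fold enrichment at each gene was also at a site found in every line probed, and these sites held no Atoh1 summit. At Barhl1 it lay in an intron, 6.0 kb from the start, and the 4 summits were within 34 bp. Its fold enrichment was 11.7 for iGPA, 4.64 for iP+A, 8.21 for iG+P and 5.23 for iPou4f3. The intervals of iGPA (9.25 to 14.5) and iG+P (6.47 to 10.3) overlapped each other, and that of iGPA lay above those of iPou4f3 (3.82 to 7.00) and iP+A (3.35 to 6.28). Within its list the site was at percentile 95.1, 88.4, 97.4 and 85.2 in the same order. The iG+P interval overlapped that of iPou4f3 as well. No E-box and 4 Pou4f patterns, some of them overlapping, lay in the 250 bp around the summit.

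At Barhl2 the Pou4f3 site lay 2.3 kb upstream of the start, with the summits within 29 bp. Its fold enrichment was 9.32 for iGPA, 5.66 for iP+A, 7.77 for iG+P and 6.78 for iPou4f3, and its percentile was 91.6, 94.1, 96.9 and 92.0. It ranked near the top of each list, and the intervals of all 4 lists overlapped, the lowest running from 4.22 to 7.45 and the highest from 7.20 to 11.9. It held 3 Pou4f patterns, some of them overlapping, and no E-box. Barhl1 had 4 sites in all 4 Pou4f3 lists of its 11 Pou4f3 sites, and Barhl2 had 1 of 6, where the share over the series was 14.8%.

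**Figure D4:**
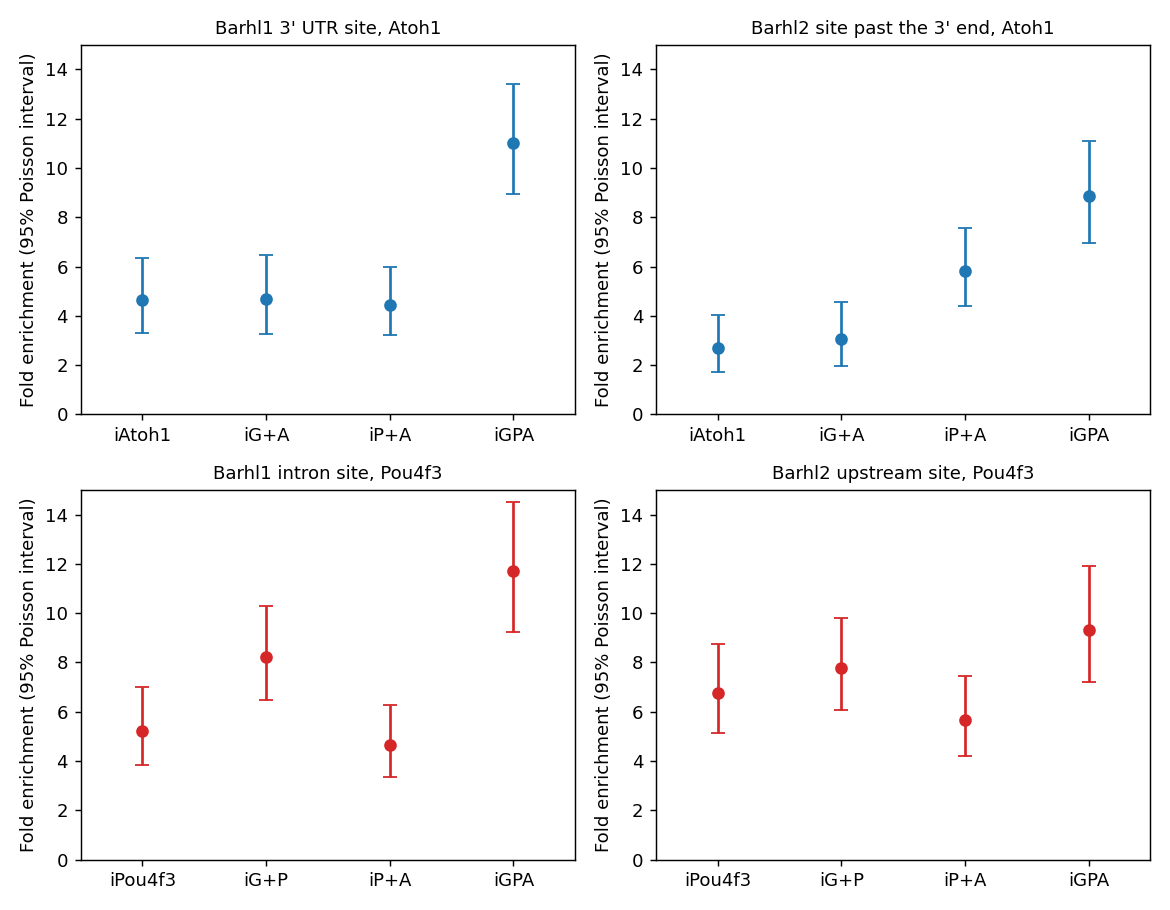
Fold enrichment at the summit (y axis, the authors' ratio) with the 95% Poisson interval of the recovered fragments, in the 4 lists of the factor (x axis), at 4 sites found in every list of 1 factor (the Atoh1 site at the 3′ end and the Pou4f3 site of highest fold enrichment at each gene). Atoh1 is blue and Pou4f3 red. At the Barhl1 3′ UTR site iGPA stands at 11.0 and the other lines between 4.45 and 4.67.

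Whether Atoh1 summits differ with Pou4f3 present was examined by setting the lines without it (iAtoh1 and iG+A) beside those with it (iP+A and iGPA). At Barhl1 there were 10 Atoh1 summits without Pou4f3 and 21 with it, in list pairs holding 36072 and 45180 retained peaks. A difference of at least 11 summits was found for 1.92% of protein-coding genes, and the median gene differed by 1. At Barhl2 there were 3 without and 5 with Pou4f3, a difference that 44.4% of genes reached. When each list was cut to the length of the shortest, the Barhl1 numbers were 8 and 19. Counting only summits whose nearest annotated start is that of Barhl1 left 4 and 7, a difference of 3.

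Part of the Barhl1 difference came from upstream sites at which Atoh1 was retained in both iP+A and iGPA but in neither iAtoh1 nor iG+A. There were 3 of them among the 13 Atoh1 sites of Barhl1, at 23.1, 27.3 and 36.5 kb upstream, and 1 among the 4 of Barhl2, at 81.4 kb downstream of the start. Over the series 7.98% of Atoh1 sites were of this kind. All 4 also had a Pou4f3 summit in at least 1 list, as did 61.2% of such sites over the series and 32.3% of all Atoh1 sites. Only the site 27.3 kb upstream of Barhl1 had one in a line without Atoh1, iG+P. At the others the Pou4f3 summits were of iP+A or iGPA, which also carry Atoh1. Of all Atoh1 sites, 6 of 13 at Barhl1 and 1 of 4 at Barhl2 had a Pou4f3 summit.

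The site 23.1 kb upstream of Barhl1 was the one at which all 3 factors were found. Atoh1 had a fold enrichment of 3.44 in iP+A and 8.37 in iGPA, and their intervals (2.37 to 4.84 and 6.51 to 10.6) did not overlap. Pou4f3 had 2.83 in iP+A and 5.39 in iGPA, with intervals (1.85 to 4.16 and 3.82 to 7.40) that overlapped. Gfi1 had 4.84 in iGPA with an interval of 3.08 to 7.28 from 21 fragments in 1 library. A CATCTG E-box began 2 bp from the Atoh1 summit and a Pou4f pattern 30 bp from it on the other side, and the Gfi1 pattern AATCACNGC was not in the 250 bp window. Of the 2991 Gfi1 sites of the series, 17.9% also had both an Atoh1 and a Pou4f3 summit of iGPA. The nearest annotated start was that of the pseudogene Gm13394, so the site is linked to Barhl1 by distance alone.

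The site 27.3 kb upstream had Pou4f3 in iGPA (3.93), iP+A (2.94) and iG+P (3.17) and Atoh1 in iP+A (2.69) and iGPA (5.54), with a CAGCTG E-box 5 bp from the summit and no Pou4f pattern. The site 7.3 kb upstream had Pou4f3 in all 4 lists, at 3.93 for iGPA, 2.83 for iP+A, 3.94 for iG+P and 2.85 for iPou4f3, and Atoh1 in iGPA alone at 5.17. An E-box and a Pou4f pattern lay within 50 bp of its summit. The site 36.5 kb upstream had Atoh1 at 5.06 in iP+A and 5.05 in iGPA and Pou4f3 in iP+A at 2.94, and it held both patterns. The site 81.4 kb downstream of the Barhl2 start had Atoh1 at 4.63 in iP+A and 3.45 in iGPA and Pou4f3 in iP+A at 2.72, and it also held both. A site 62.0 kb upstream of Barhl1, in an intron of 1700101E01Rik, had Pou4f3 in all 4 lists at 2.96 to 4.62 and no Atoh1 summit.

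Close to the start of Barhl1, Atoh1 was found in the 5′ UTR, 159 bp downstream of the nearest annotated start, in iG+A (3.47), iP+A (4.30) and iGPA (6.28) and was not called in iAtoh1. A weaker site 1.4 kb upstream had Atoh1 in iAtoh1 (2.69), iP+A (2.80) and iGPA (3.45) and Pou4f3 in iP+A (2.49), and held none of the patterns searched. Within 1 kb of the start of Barhl2 there were 2 single Pou4f3 summits, at 2.61 in iPou4f3 (330 bp upstream) and 2.63 in iG+P (in the 5′ UTR of 1 transcript). The most widely shared site of the Barhl1 window, in 7 lists, lay 76.2 kb downstream at the facing starts of Gtf3c4 and Ddx31, where its Pou4f3 fold enrichment was 8.99 in iPou4f3 and 2.83 to 3.39 in the other lines. Its Atoh1 summits spread over 452 bp and its Pou4f3 summits over 309 bp, and it is nearer to those genes than to Barhl1. The remaining 9 sites at Barhl1, that at 36.5 kb included, had fold enrichments of 2.30 to 6.36, and the remaining 4 at Barhl2 had 2.38 to 5.34.

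The reverse comparison set Pou4f3 summits in lines without Atoh1 (iPou4f3 and iG+P) beside those with it (iP+A and iGPA). Barhl1 had 12 without and 17 with Atoh1, although the list pairs shrank from 55065 to 35833 retained peaks. Only 40 of 22350 genes (0.179%) differed by at least as much in this direction, and the median difference over all genes was -2. The direction turned with the threshold, since with a −log10 p of at least 10 Barhl1 had 7 summits without and 5 with Atoh1, so 12 of the 17 summits with Atoh1 lay under this threshold and 5 of the 12 without it. Barhl2 had 4 without and 5 with Atoh1, a difference reached by 7.86% of genes, and within 50 kb it had 4 and 3.

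Where a site was found in iGPA and in another line, iGPA tended to have the highest fold enrichment. This was so for 9 of 11 Atoh1 sites at Barhl1 and 1 of 2 at Barhl2, against 63.7% of such sites over the series. For Pou4f3 it was so for 6 of 8 sites at Barhl1 and for the 1 at Barhl2, against 69.2%. Most shared sites of the series thus had their highest value in iGPA as well.

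The patterns around the summits were counted by factor. An E-box lay within the 250 bp window of 30 of the 39 Atoh1 summits at the 2 genes (76.9%), where the share over all Atoh1 summits was 65.8%, and of 15 of the 38 Pou4f3 summits, where it was 26.3%. A Pou4f pattern lay at 27 of the 38 Pou4f3 summits (71.1%), where the share over all Pou4f3 summits was 44.1%, and at 7 of the 39 Atoh1 summits, where it was 7.46%. Both comparisons depended on the letters. With the looser CANNTG the Atoh1 shares were 84.6% at the 2 genes and 86.7% over all Atoh1 summits. With no mismatch allowed the Pou4f pattern lay at 1 of the 38 Pou4f3 summits (2.63%), below the 8.09% of all Pou4f3 summits. Of the 7 Barhl1 sites with Atoh1 alone, 6 held an E-box and 0 a Pou4f pattern, and all 5 with Pou4f3 alone held a Pou4f pattern and 1 an E-box. Of the 6 with both factors, 3 held both patterns. The split was less clear at Barhl2. Of its 3 sites with Atoh1 alone, 2 held an E-box and 0 a Pou4f pattern. Of its 5 with Pou4f3 alone, 2 held a Pou4f pattern and 1 an E-box. Its 1 site with both factors held both patterns. Shares over the series were not counted for these classes of site. Summits of 1 site share their sequence, so these counts are not independent. The Gfi1 pattern was found at none of the 27 sites, of which 1 had a Gfi1 summit, where 0.622% of all Atoh1 summits, 0.637% of all Pou4f3 summits and 8.33% of all Gfi1 summits held it.

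Among 13 regulators of Atoh1-dependent neurons, Barhl1 had the largest number of summits over the 9 lists, 61, followed by Nhlh1 with 58 and Nhlh2 with 44. All 13 had an Atoh1 and a Pou4f3 summit in at least 1 list, as did 89.7% of all genes for Atoh1 and 92.4% for Pou4f3, with a median of 9 summits in the Atoh1 lists, the same as the median of all genes, and a median of 14 in the Pou4f3 lists against 10. Among 12 hair cell regulators Barhl1 was again highest, followed by Rfx1 with 46, and the median was 9.5 for Atoh1 and 15.5 for Pou4f3. Both lists hold Barhl1, and the first also holds Barhl2. Atoh1, Pou4f3 and Gfi1 were left out of both, because their inserted copies give peaks in their own exons. The numbers are of summits in the gene body or within 100 kb, where the nearest start can be that of another gene.

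Over the 9 lists, the genes whose numbers of summits varied most like those of Barhl1, by Pearson's r of log2(1 + summits), were Galntl4 (0.97), Ccdc33, Rab4a and Cd74 (0.96 each) and Plekha6 (0.95). For Barhl2 they included Tjp1 and 1200016B10Rik (0.95 each) and Mapk4 and Lrrc43 (0.94 each). The points are 9 lists of unequal length, which all genes share, so likeness of this kind is a description.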

How the data were processed

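ChIP-seq peak lists from 6 inducible mouse embryonic stem cell lines were analysed as deposited. Per the study's methods, the authors used Bowtie 2 for alignment to mm9, discarded duplicate, poorly mapped and blacklisted reads, and ran MACS 2 on merged ChIP against merged input libraries. Each deposited peak carries a fold enrichment, which is a ratio to the peak caller's background, and −log10 p and −log10 q values of the peak caller. The deposited summit lists hold the peaks that the authors retained, by a filter not given in the sources used here, and 14.1% to 35.5% of called peaks are absent from them. The peak list labelled with all 3 factors was taken as iGPA, by that name alone. Library depth was not used here. Fragments and background at each summit were recovered from the fold enrichment and −log10 p (tolerance 0.001, 87 of 87 peaks at the loci) and gave exact 95% Poisson intervals. Within a list the same background often recurred, such as 7.13 for Atoh1 in iGPA, and it differed between lists.

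Groups came from the sample titles. Summits in a gene body or within 100 kb were taken, and 300 bp windows sharing at least 1 bp were joined. Genes came from GENCODE on NCBIM37, the same build. Sites named were those in 3 or more lists (at most 8 per gene), those with Gfi1 and those within 1 kb of a start. The site 36.5 kb upstream of Barhl1 was named after its values were seen. Genes most alike were the 5 of highest r, at least 300 kb away, with at least 0.5 times the member's summits, and some genes are not reported here. The members and lists were chosen with earlier results of these data known. The scripts were tested on simulated data. Python, pandas, NumPy and SciPy were used. Alternatives were all called peaks, a −log10 p minimum, lists of equal length, 50 kb, the nearest start, other joining windows, all gene types and other patterns.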

Additional observations from a re-analysis of the deposited data

Results flagged for a closer look

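At Barhl2, 7 peaks were called within 100 kb that are absent from the retained summits and so entered no comparison except the alternative with all called peaks. Of these, 5 lay at 1 place, 89.8 kb downstream of the start, where a peak was called in 6 lists including that of Gfi1 and was retained in that of Atoh1 in iG+A alone, at a fold enrichment of 5.34. The 5 that were not retained had a fold enrichment of 2.24 to 3.67. The 250 bp around this summit match themselves at 90.2% of bases when shifted by 36 bp, and no other site at the 2 genes passed 41.7% at any shift from 10 to 100 bp. Whether the repeat bears on the calls was not tested.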

How the results depend on the processing

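No paired analysis was possible because the lists were called on merged replicates, and for the same reason no replicate could be left out. For the number of sites (18 at Barhl1, 9 at Barhl2), taking nearest starts gave 7 at Barhl1, 50 kb gave 10, and at Barhl2 a −log10 p of at least 10 gave 4 and equal lists 5. For Atoh1 at Barhl1 (10 without and 21 with Pou4f3), a −log10 p of at least 10 gave 2 and 13, 50 kb 4 and 13, and nearest starts 4 and 7, a difference of 3. Of the 13 with Pou4f3 at that −log10 p, 3 were of iP+A and 10 of iGPA. At Barhl2 (3 and 5), a −log10 p of at least 10 gave 1 and 3 and 50 kb left 3 with Pou4f3, and the difference of 2 became 4 with all called peaks, 1 with equal lists and 1 within 50 kb. For Pou4f3 at Barhl1 (12 without and 17 with Atoh1), a −log10 p of at least 10 gave 7 and 5, a difference of -2, nearest starts 6 and 8, a difference of 2, and 50 kb left 7 without Atoh1. At Barhl2 (4 and 5), a −log10 p of at least 10 gave 2 and 2, a difference of 0, equal lists left 2 without Atoh1, a difference of 2, 50 kb left 3 with Atoh1, a difference of -1, and nearest starts gave -1. The Gfi1 summit of Barhl1 was lost with nearest starts (0), and all called peaks gave 1 at Barhl2. Each of these settings leaves fewer or more peaks by construction, and the cause of the reversed differences was not tested further. Over all gene types, the share of genes reaching the Atoh1 difference was 1.46% for Barhl1 and 39.3% for Barhl2, the share reaching the Barhl2 Pou4f3 difference 8.85%, and the share reaching the Barhl2 total 51.1%. Pou4f patterns, at 27 of the 38 Pou4f3 summits, lay at 19 in 100 bp windows and at 1 with no mismatch, where all Pou4f3 summits had 34.5% and 8.09%. The other 56 values moved by at most 1.5 times, or stayed in the binomial interval for shares.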
